A study of Arabidopsis thaliana with 6 samples.

Results

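PUB22, PUB23 and PUB24 are 3 plant U-box E3 ubiquitin ligases of Arabidopsis. Their loci are AT3G52450 on chromosome 3, AT2G35930 on chromosome 2 and AT3G11840 on chromosome 3. Each was read by 1 probe set, so the members were 3 of the 13286 genes that the array annotation names and 3 of 22746 probe sets. They were chosen by name from genes whose signals had already been seen to rise in this same contrast, so their own differences are given as a description and carry no test.

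The tested plants, Light Sub 48 h, were 4-week-old wild-type Col-0 plants held completely under water in the light for 48 h. The Control 0 h plants were untreated plants of the same age and genotype. Rosettes were harvested from both, labelled leaves in the sample records, with 3 biological replicates per condition and 3 plants pooled in each replicate. The arrays were Affymetrix ATH1 GeneChips, which carry sets of short oligonucleotide probes read in 1 colour. The control plants were harvested before the treatment began, so submergence, 48 h of further age and the lower light used during submergence cannot be told apart.

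An E3 ligase carries the last step of ubiquitination: it binds a substrate and an E2 enzyme charged with ubiquitin, and the ubiquitin chain often sends the substrate to the 26S proteasome. The U-box is the fold that holds the E2 enzyme, and in these 3 proteins it is followed by armadillo repeats that can bind substrates. PUB22, PUB23 and PUB24 are known as joint brakes on immunity triggered by microbial patterns, since the triple mutant responds more strongly to flagellin. PUB22 and PUB23 are also known to restrain the drought response. Reported substrates include Exo70B2, a subunit of the exocyst, and RPN12a, a subunit of the 19S lid of the proteasome.

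The 3 transcripts were all higher in light submergence than in the control, and the conditions did not overlap for any of them. PUB22 was 29.0-fold higher with control signals below background raised to it (55.7-fold as measured), PUB23 at least 22.6-fold higher and PUB24 4.55-fold higher. In whole rosettes, more or less RNA per cell and more or fewer cells of a type cannot be told apart. A probe set whose light submergence arrays all lay above its control arrays was common here, at 23.1% of all probe sets, and nothing is read from the count of 3 members.

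**Figure D1:**
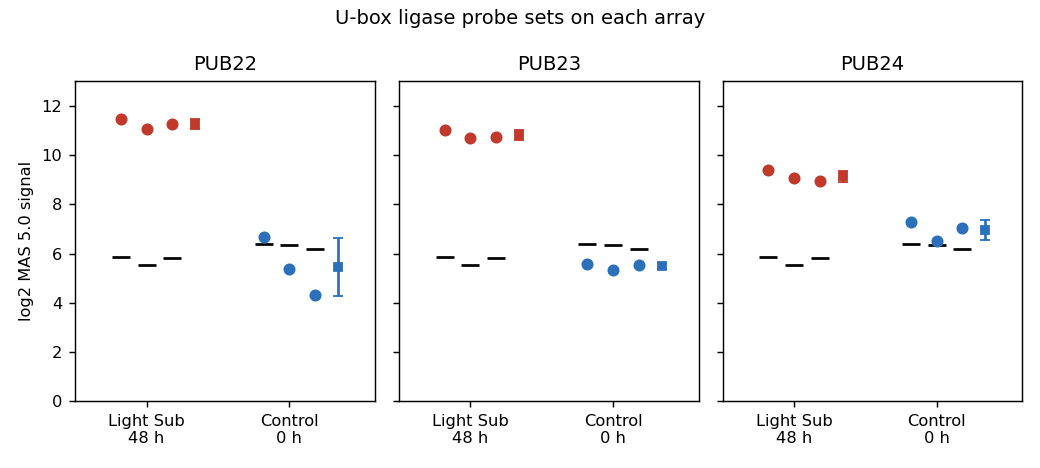
Log2 MAS 5.0 signal (y axis) of PUB22, PUB23 and PUB24 on each of the 3 Light Sub 48 h arrays (red, left) and 3 Control 0 h arrays (blue, right); squares with bars are means ± SD and black dashes the 40th percentile of each array. The control points of PUB22 spread from 4.33 to 6.68, those of PUB23 lie below the dashes, and those of PUB24 lie above them.

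PUB22 had log2 signals of 11.47, 11.05 and 11.26 on the light submergence arrays, against 6.68, 5.37 and 4.33 on the control arrays. The submerged plants were close to each other, with a range of 0.42, while the controls spread over 2.35 log2 units. Means were 11.26 ± 0.21 in light submergence and 5.46 ± 1.18 in the control (SD, n = 3 each), a difference of 5.80 with a standard error of 0.69. On the linear scale the arithmetic mean signal was 2470 in light submergence and 54.7 in the control, and folds here are taken from the log2 means. The level below which 40% of the probe sets of an array lie was taken as background, and it was a log2 signal of 5.55 to 5.84 on light submergence arrays and 6.17 to 6.39 on control arrays. PUB22 was above it on 3 of 3 light submergence arrays and on 1 of 3 control arrays, replicate 1. The size of its difference therefore rested on a dim and variable control level. With each signal below background raised to that level, a setting added after the data were seen, the difference was 4.86, or 29.0-fold. As measured it was 6.41 without Control replicate 1 and 5.24 without Control replicate 3.

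PUB23 had log2 signals of 11.03, 10.68 and 10.71 on the light submergence arrays, against 5.58, 5.34 and 5.52 on the control arrays. Both conditions were tight for this transcript, and it was the most even of the 3 across the controls. Means were 10.81 ± 0.19 in light submergence and 5.48 ± 0.12 in the control (SD, n = 3 each), a difference of 5.33 with a standard error of 0.13. PUB23 was above background on all 3 light submergence arrays and on none of the 3 control arrays. The measured ratio was 40.1-fold, and against the background level of each control array the transcript was at least 22.6-fold higher.

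PUB24 had log2 signals of 9.39, 9.06 and 8.95 on the light submergence arrays, against 7.29, 6.52 and 7.05 on the control arrays. It was the only one of the 3 above background on every array of both conditions. Means were 9.14 ± 0.23 in light submergence and 6.95 ± 0.39 in the control (SD, n = 3 each), a difference of 2.18 with a standard error of 0.26. Light Sub replicate 1 was the highest submerged array for all 3 ligases, and the lowest control differed, being replicate 3 for PUB22 and replicate 2 for PUB23 and PUB24.

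Ordered by their log2 differences, the ligases ran PUB22, PUB23 and PUB24. The first 2 were 0.47 apart, which lay within their summed standard errors of 0.82. PUB22 and PUB24 were 3.62 apart, against summed standard errors of 0.95, and PUB23 and PUB24 were 3.14 apart, against 0.40. Leaving out Control replicate 3 turned the first 2 round, with 5.35 for PUB23 and 5.24 for PUB22. The last place of PUB24 held on each array left out and under each scaling tried. Probe sets bind with different strength, so the differences but not the levels were set side by side.

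Within the whole array, the measured difference was smaller in 99.1% of probe sets than in PUB22, in 98.9% than in PUB23 and in 93.1% than in PUB24. These places rest in part on control signals below background, for PUB22 on 2 of 3 control arrays and for PUB23 on all 3. With signals below background raised to it, the shares were 99.4% for PUB22, 99.2% for PUB23 and 95.5% for PUB24. The median probe set was 0.26 log2 units lower in light submergence as deposited and 0.02 higher after quantile normalization. Relative to the deposited median, the 3 ligases were 6.06, 5.58 and 2.44 log2 units higher, in the order PUB22, PUB23 and PUB24.

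The other U-box ligases were then examined with limma over all 22746 probe sets, calling a change at a Benjamini-Hochberg adjusted p under 0.05 and at least 1.5-fold. A total of 54 other U-box loci was listed, and the array annotation named a probe set for 31 of them. In light submergence 8 of the 31 rose, 5 fell and 18 did not pass. That is 25.8% higher and 16.1% lower, beside 15.7% called higher and 22.6% called lower over one probe set for each of 13286 genes. Over all 22746 probe sets 18.3% were called higher and 24.3% lower, 42.6% in either direction. The median log2 fold change of the 31 loci was 0.57, beside -0.29 over the 13286 genes. Of the 31, 6 were above background on no array. Only 9 of the 31 carried a gene name or a U-box description, and 22 were placed in the family from general knowledge. Of the 9, 22.2% were called higher and 11.1% lower, with a median log2 fold change of 0.29. Of the 22, 27.3% were called higher and 18.2% lower, with a median of 0.63. The family thus moved in both directions. Among 34 loci, the 31 and the 3 ligases, PUB22 ranked 1, PUB23 3 and PUB24 7 by measured log2 difference, and 1, 2 and 6 with signals below background raised to it. The count of those that fell was 3 without Control replicate 2.

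**Figure D2:**
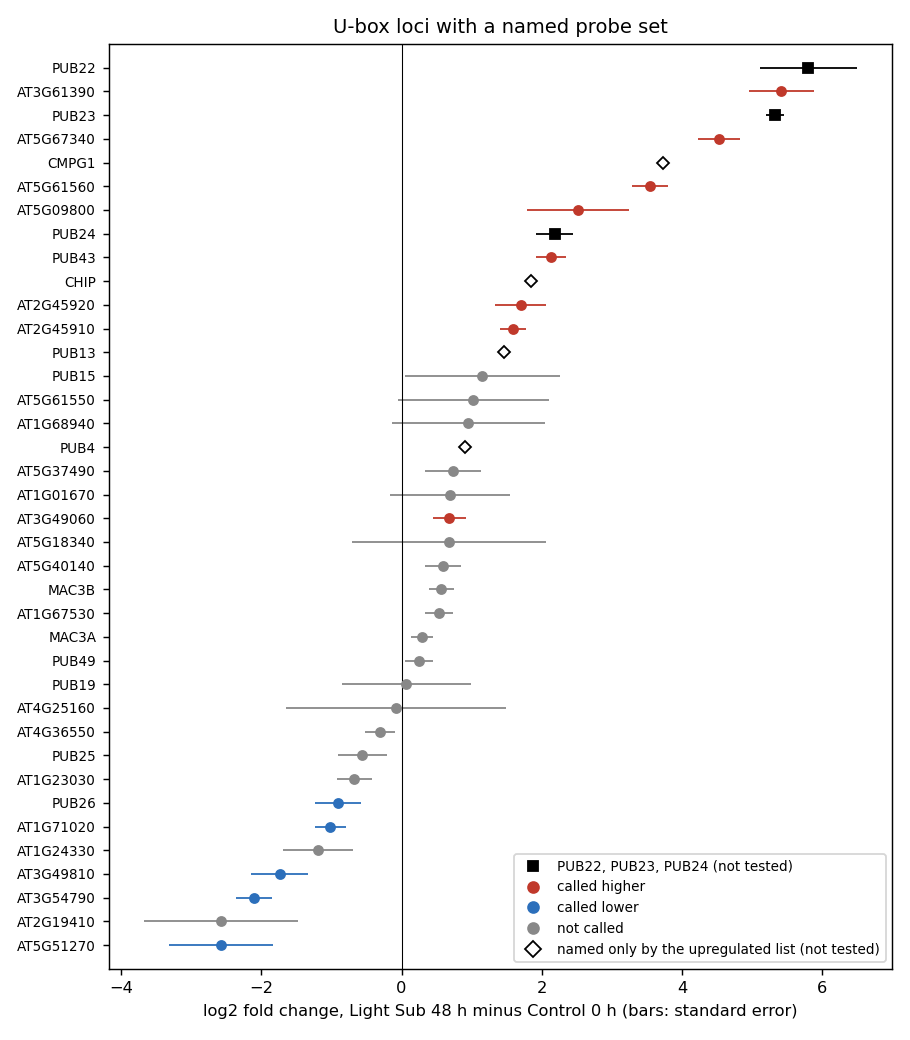
Log2 fold change, Light Sub 48 h minus Control 0 h (x axis; bars, standard error), of each U-box locus with a named probe set (rows, highest on top); black squares are PUB22, PUB23 and PUB24, red points called higher, blue points called lower, grey points not called and open diamonds loci named only by the study's list of upregulated genes. The family runs down to -2.57, and the order of AT3G61390, PUB23 and AT5G67340 near the top is not settled, since their control signals lay below background on all 3 arrays.

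The largest increases among the other U-box loci named by the annotation were in AT3G61390, AT5G67340 and AT5G61560, which the annotation lists by locus only and which were placed in the family from general knowledge. AT3G61390 had log2 signals of 9.54, 11.46 and 10.16 in light submergence, against 5.05, 5.48 and 4.39 in the control. Its difference of 5.41 (standard error 0.46, limma adjusted p = 6.84e-06) was measured against controls of which none was above background, and it was at least 16.9-fold higher. AT5G67340 read 10.12, 10.91 and 9.93 in light submergence, against 6.19, 5.45 and 5.75 in the control, and was at least 16.2-fold higher (limma adjusted p = 1.42e-06). AT5G61560 was 11.7-fold higher, at a mean of 10.17 ± 0.48 in light submergence and 6.62 ± 0.23 in the control (SD, n = 3 each, limma adjusted p = 2.47e-06). In each of these 3 loci the light submergence arrays all lay above the control arrays, as they did in 23.1% of all probe sets, and each lay above background on all light submergence arrays.

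Smaller increases were called for PUB43, AT2G45910, AT2G45920, AT5G09800 and AT3G49060. PUB43 had log2 signals of 9.51, 10.31 and 10.00 in light submergence, against 7.84, 7.80 and 7.79 in the control, a 4.37-fold increase (limma adjusted p = 1.8e-05). AT2G45910, a U-box protein that also carries a kinase domain, had a log2 fold change of 1.59 (limma adjusted p = 6.02e-05). AT2G45920 was at least 2.41-fold higher and AT5G09800 at least 1.63-fold higher. The call of AT5G09800 was lost without Light Sub replicate 1, at a log2 fold change of 2.18. AT3G49060, with a log2 fold change of 0.68, lost its call after subtraction of the 75th percentile (0.62), without the variance trend and when any of 4 arrays was left out, at 0.47 without Light Sub replicate 2, 0.73 without Light Sub replicate 3, 0.54 without Control replicate 1 and 0.72 without Control replicate 3.

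A further 5 loci fell, PUB26 among them. AT3G54790 had log2 signals of 6.92, 6.88 and 7.60 in light submergence, against 9.06, 9.53 and 9.12 in the control, a log2 fold change of -2.10 (limma adjusted p = 6.52e-05). AT3G49810 had a log2 fold change of -1.74 (limma adjusted p = 0.00562) and AT1G71020 one of -1.01 (limma adjusted p = 0.00322). AT3G49810 was above background on only 1 light submergence array, and its difference was -1.52 with signals below background raised to it. AT5G51270 had a log2 fold change of -2.57 (limma adjusted p = 0.016), but it was above background on no array, and its call was lost without Control replicate 2, at -2.49.

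PUB26 was the one of the 5 that the annotation names as a U-box gene. PUB25 and PUB26 are known to send the inactive form of the immune kinase BIK1 to degradation. PUB26 had log2 signals of 6.37, 6.99 and 6.66 in light submergence, against 7.11, 7.76 and 7.86 in the control. Its log2 fold change of -0.90 had a limma adjusted p of 0.0446 and was -0.51, no longer called, after quantile normalization. Fitting without the variance trend or leaving out any of 4 arrays also ended the call, at -0.75 without Light Sub replicate 1, -0.90 without Light Sub replicate 3, -0.81 without Control replicate 2 and -0.76 without Control replicate 3. PUB25 read 6.74, 6.44 and 6.75 in light submergence, against 6.70, 7.67 and 7.25 in the control, and its log2 fold change of -0.56 did not pass (limma adjusted p = 0.23).

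Other named family members did not pass. MAC3A and MAC3B, U-box proteins of the spliceosome-associated MOS4 complex, had log2 fold changes of 0.29 and 0.57. MAC3B had a limma adjusted p of 0.0217 but was under 1.5-fold, and it passed that limit without Light Sub replicate 1 (0.62), Light Sub replicate 2 (0.69) or Control replicate 1 (0.63). PUB49 had a log2 fold change of 0.25. PUB19, a ligase of the drought response, had one of 0.07 whose sign turned to -0.0028 with an offset of 32 added to the signal. PUB19 was above background on only 1 light submergence array and on no control array, so its level could hardly be read. PUB15 had a log2 fold change of 1.15 but was above background on no array.

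A further 4 U-box genes could be named only through the study's own list of upregulated genes. That list holds genes chosen for their increase on these arrays, so their values are given with no test and no count. CMPG1, an elicitor-responsive ligase also known as PUB20, had log2 signals of 9.89, 9.93 and 9.30 in light submergence, against 6.02, 6.14 and 5.77 in the control, and was at least 10.6-fold higher. CHIP, which binds heat-shock chaperones, was 1.85 log2 units higher. PUB13, which ubiquitinates the flagellin receptor FLS2, was 1.46 higher and PUB4 0.90 higher. The other 19 listed U-box loci were not analysed here.

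Of the 5 listed substrates and partners of the 3 ligases, the annotation named RPN12a. Its log2 signals were 10.89, 11.82 and 11.18 in light submergence, against 10.44, 10.54 and 10.62 in the control. The increase was 1.70-fold (log2 fold change 0.77, standard error 0.22, limma adjusted p = 0.0142), far smaller than those of PUB22 and PUB23. Its call was lost without the variance trend, without Light Sub replicate 2, at 0.51, and without Control replicate 1, at 0.72. EXO70B2, named only by the list of upregulated genes, read 11.01, 10.96 and 10.68 in light submergence, against 8.08, 8.14 and 8.59 in the control. ATS9, another proteasome lid subunit, was 0.99 log2 units higher by the same naming. PYL9 and MPK3 were not analysed here.

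U-box ligases work with E2 enzymes, of which the UBC8 type is the one most used with them in the test tube. Of 10 listed E1 and UBC8-type E2 genes, 3 were measured and all 3 rose, beside 15.7% of all named genes called higher. UBC28 had log2 signals of 14.14, 13.69 and 13.80 in light submergence, against 12.34, 12.70 and 12.86 in the control, a 2.37-fold increase (limma adjusted p = 0.000605). UBC29 was 2.01-fold higher (limma adjusted p = 0.00178) and UBC30 1.94-fold higher (limma adjusted p = 0.00164). UBC11, named only by the list of upregulated genes, was 2.15 log2 units higher.

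The exocyst tethers secretory vesicles to the plasma membrane, and EXO70B2 belongs to it. Of 24 listed subunit genes 7 were measured, of which 2 rose, 0 fell and 5 did not pass. That is 28.6% higher and 0.0% lower, beside 15.7% higher and 22.6% lower over all named genes. Their median log2 fold change was 0.21, beside -0.29 over the 13286 genes. It was the value of SEC5B, which was above background on no array. EXO84B read 10.10, 10.53 and 10.21 in light submergence, against 9.32, 9.46 and 9.56 in the control, a 1.78-fold increase (limma adjusted p = 0.00151). SEC15B was 1.66-fold higher (limma adjusted p = 0.0141), and its call was lost without the variance trend and without Control replicate 1, at a log2 fold change of 0.54, each of which left 1 subunit called. SEC6 had a log2 fold change of 0.38, SEC5A one of -0.16 and SEC10 one of -0.19. SEC15A had a log2 fold change of -0.11, whose sign turned to 0.37 after quantile normalization. By the list of upregulated genes, EXO70H2 was at least 18.9-fold higher and EXO70E1 0.53 log2 units higher.

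The receptors and kinases that perceive microbial patterns lie upstream of the responses that the 3 ligases restrain. Of 26 listed, 2 were measured by the annotation and both rose, beside 15.7% of all named genes. BIK1, the cytoplasmic kinase that the flagellin receptor complex activates, had log2 signals of 12.05, 12.11 and 11.75 in light submergence, against 8.65, 8.67 and 8.16 in the control. It was 11.1-fold higher (limma adjusted p = 3.02e-07). EFR, the receptor of bacterial elongation factor Tu, was 2.51-fold higher (limma adjusted p = 0.00178). Another 9 were named only by the list of upregulated genes, so they were chosen for their increase and add nothing to this count. They were 0.83 to 2.94 log2 units higher, with CPK6 and SOBIR1 the highest at 2.94 and 2.70.

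Genes that respond early to microbial patterns, as PUB22, PUB23 and PUB24 themselves are known to do, made up a list of 26. Of these 4 were measured by the annotation and all 4 rose, beside 15.7% of all named genes. Their median log2 fold change was 4.20 as measured and 3.39 with WRKY22 and CML37 at their lower bounds. WRKY22, a transcription factor of the flagellin response, read 11.59, 11.21 and 10.86 in light submergence, against 5.66, 5.44 and 5.59 in the control, and was at least 30.2-fold higher (limma adjusted p = 6.08e-08). WRKY53, a transcription factor also known from leaf senescence, read 11.10, 10.78 and 10.74 in light submergence, against 6.93, 7.64 and 7.55 in the control, and was 11.4-fold higher (limma adjusted p = 8.25e-07). The calmodulin-like genes CML37 and CML38, which touch also induces, were at least 2.02-fold higher and 9.73-fold higher. CML37 was above background on no control array, and its log2 fold change of 4.90 was 2.33 with an offset of 32 added to the signal. CML38 was above background on 1 of 3 control arrays, and was 5.93-fold higher with control signals raised to background. Of 7 listed touch genes 3 were measured, CML37, CML38 and AT1G76640, and the last was above background on no array, with a log2 fold change of -0.14 that turned to 0.24 after quantile normalization. Another 8 early pattern-response genes were named only by the list of upregulated genes. They were chosen for their increase and add nothing to the count of 4. Among them were YLS9, at least 32.5-fold higher, and FRK1, a receptor-like kinase used as a flagellin marker. FRK1 was above background on 1 of 3 control arrays and was 158-fold higher with control signals raised to background.

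**Figure D3:**
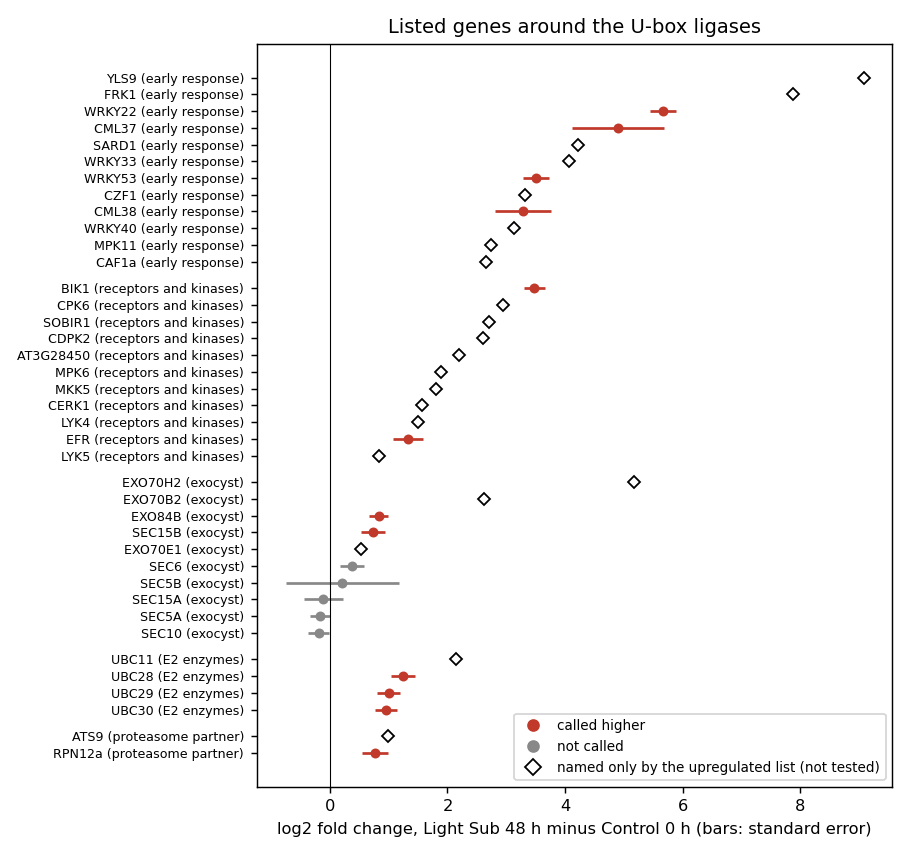
Log2 fold change, Light Sub 48 h minus Control 0 h (x axis; bars, standard error), of listed genes around the 3 ligases (rows, by list); red points are called higher, grey points not called, and open diamonds genes named only by the study's list of upregulated genes. Called E2, exocyst and proteasome genes lie between 0.73 and 1.25, and WRKY53, above background on every array, lies at 3.50. WRKY22, CML37, YLS9 and EXO70H2 are drawn as measured, against controls not above background, and SEC5B was above background on no array.

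All the gene lists were chosen with earlier results of these data known, so their shares are given as a description. The shares also rest on few genes, because the annotation left 8730 of the 22746 probe sets without a gene. The 25 abscisic acid and drought genes listed for PUB22 and PUB23 included 0 that it named. By the list of upregulated genes the abscisic acid receptors PYL6 and PYL4 were at least 12.6-fold higher and 5.94-fold higher, and the transcription factor ABF4 was 1.25 log2 units higher.

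The neighbours of the 3 loci that had a named probe set did not share one direction. None was named for PAD4 and AT3G52440 near PUB22, AT2G35935 and BLH1 near PUB23, or AT3G11825 and AT3G11860 near PUB24. Next to PUB22, AT3G52460 and AT3G52470 did not pass, with log2 fold changes of -0.24 and -0.42. AT3G52460 was above background on no array, and its value turned to 0.24 after quantile normalization. Close to PUB23, AT2G35910 read 9.26, 8.94 and 8.74 in light submergence, against 3.59, 3.41 and 2.91 in the control, and was at least 6.38-fold higher because no control array was above background (limma adjusted p = 3.28e-06). Its measured log2 fold change of 5.67 was 3.68 with an offset of 32 added to the signal. Between that gene and PUB23, AT2G35920 was 0.85 higher (limma adjusted p = 0.0317), and its call was lost without the variance trend and without Light Sub replicate 3 (0.62), Control replicate 1 (0.65) or Control replicate 3 (0.87). Beside PUB24, AT3G11830 was lower, with a log2 fold change of -1.05 (limma adjusted p = 0.000447). On its other side AT3G11850 was 0.72 higher (limma adjusted p = 0.0251), and its call was lost without Light Sub replicate 2 (0.72), Light Sub replicate 3 (0.59), Control replicate 2 (0.72) or Control replicate 3 (0.68).

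Likeness to each ligase was measured by Pearson's r over the 6 arrays, among 7658 probe sets of 1 gene that spanned at least 2 log2 units. The 6 arrays fall into 2 conditions, so r is high for any gene whose increase is large beside its spread within conditions. It is given as a description. For PUB22, 823 candidates had r over 0.9, with STN1, AT2G28570 and AT5G39580 the closest at 0.9993, 0.9992 and 0.9991. For PUB23, 926 candidates did, with AT3G25610, AT2G36690 and AT5G58375 the closest. For PUB24, 844 did, with AT2G29995, AT3G62950 and AT3G28850 the closest, at 0.9994, 0.9972 and 0.9971. AT5G39580 was at least 150-fold higher in light submergence and AT2G36690 at least 73.9-fold higher, each above background on no control array. STN1, the closest to PUB22, was also above background on no control array, and was only at least 1.09-fold higher. PUB22 itself was above background on 1 of 3 control arrays, so likeness to it rests in part on dim control signals.

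The tissue could be checked against few markers. RCA, the Rubisco activase of leaves, was bright on every array, at 14.15, 13.66 and 14.30 in light submergence and 15.29, 15.23 and 14.90 in the control. It was lower in light submergence, with a log2 fold change of -1.11 (limma adjusted p = 0.00457). The root-hair expansins EXPA7 and EXPA18 were above background on no array. NRT2.1, a nitrate transporter of roots named only by the list of upregulated genes, was above background on no control array and at least 5.07-fold higher. The other 14 listed leaf and root markers and the 4 flower markers were not analysed here, and the part of cell make-up in the changes of the 3 ligases was not tested. Correlations between arrays over all probe sets were 0.921 within light submergence, 0.909 to 0.924 within the control and 0.732 to 0.806 between conditions.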

How the data were processed

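Rosette RNA of 6 samples, 3 per condition by the sample labels, was hybridised to ATH1 arrays. The authors ran MAS 5.0 for each probe set and deposited log2 signals, which come scaled to a trimmed mean signal of 495 to 496 on each array. MAS 5.0 leaves dim signals noisy, which bears on the PUB22 and PUB23 controls. Arrays give no read depth, and 3 per condition limit the precision. The methods name RNeasy extraction and the labels Trizol.

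The array annotation gave 1 gene for 13513 of 22746 probe sets, several for 503 and none for 8730, and 13436 matched a TAIR10.1 locus, for 13286 loci. Where it gave none, 946 probe sets were named through a partial copy of the study's list of upregulated genes, whose locus was the same for 973 of 996 probe sets in both. Its statistics were not used.

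limma 3.58.1 in R 4.3.3 (lmFit, eBayes with trend) tested all 22746 probe sets without a replicate block, with Benjamini-Hochberg adjustment. The 40th percentile of an array served as its background, and an "at least" fold sets the mean of the bright condition against the higher of that level and the probe set's own signal on each dim array. Error of a member's difference is the standard error over arrays.

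The members and gene lists were chosen with earlier results of these data known. Named genes are the members, measured genes of the U-box, substrate and E2 lists, up to 4 called genes per direction of the other lists, the 3 most alike and the 2 nearest on each side. Genes of the other lists that did not pass, or that the list of upregulated genes names, were added after their values were seen. Figures used matplotlib 3.10.9. Sequences were not used here.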

Additional observations from a re-analysis of the deposited data

How the results depend on the processing

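The difference of PUB23 was 5.52 after quantile normalization and 4.57 with an offset of 32 added to the signal, and its lower-bound fold was 12.0 with the 50th percentile as background. With signals below background raised to it, added after the data were seen, the differences were 4.86 for PUB22 and 4.501 for PUB23, 2.32 apart for PUB23 and PUB24. At the 30th percentile the fold of PUB23 had no bound, since a control array then lay above it. Leaving out each array in turn gave differences of 5.24 to 6.41 for PUB22, 5.22 to 5.39 for PUB23 and 1.97 to 2.35 for PUB24, and the gap of PUB22 over PUB23 ranged over -0.11 to 1.04, below 0 only without Control replicate 3. The gap of PUB23 over PUB24 was 2.64 with the offset. The same gave 3917 to 4076 probe sets higher and 4778 to 5566 lower, against 4159 and 5525 with all arrays. It gave 7 to 8 U-box loci higher, 3 to 5 lower, and 1 to 3 exocyst genes higher. At an unadjusted p, 8 U-box loci were lower. Exocyst genes higher numbered 1 without the variance trend and 0 at 2-fold. The early-response, receptor and E2 counts held without each array.

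Signs of uncalled genes turned after quantile normalization for SEC15A (0.37), AT3G52460 (0.24), AT4G25160 (0.21) and AT1G76640 (0.24), and with the offset for PUB19 (-0.0028). With each array left out in turn, ranges crossed 0 for AT5G18340 (-0.26 to 2.27), SEC15A (-0.22 to 0.041), AT3G52460 (-0.71 to 0.12), AT4G25160 (-1.38 to 1.52), AT1G76640 (-0.81 to 0.57), SEC5B (-0.33 to 1.07), AT1G01670 (-0.29 to 1.33) and PUB19 (-0.56 to 0.80). The cause was not tested.

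Replicate numbers were not used to pair the samples. Same-numbered arrays correlated at 0.03, -0.01 and 0.06 in their deviations, and differently numbered arrays at -0.06 to 0.03. These values cannot show whether same-numbered plants were grown or harvested together. With the number as a replicate block, 4051 probe sets were higher and 5288 lower, with 8 and 4 U-box loci, and PUB26 and AT3G11850 lost their calls. Averaging probe sets could change nothing, as no listed gene had several, and the sequence alignment was not run.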
